A study of Mus musculus with 5 samples.

Results

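The genes described here encode the eukaryotic translation factors of the mouse, the proteins that start and extend a polypeptide on the ribosome. They were chosen by symbol alone, as the protein-coding genes whose name begins with Eif and a digit or with Eef1 or Eef2, and 66 of the 21019 genes with values met this rule. Of these, 54 belong to initiation and 12 to elongation, and all 66 had values in every library. RNA from 3 libraries labelled *Pfn1*-KO (homozygous for the floxed *Pfn1* fl allele) was set against RNA from 2 control libraries (*Pfn1* +/+), all from mice of 3 weeks of age, with 3 mice pooled into each library. *Pfn1* encodes the actin-binding protein profilin1, and its exon 1 lies between loxP sites in the *Pfn1*-KO mice. Both groups share *Pod-Cre*, a Cre driven in podocytes, the *Rosa-Dtr* fl allele and the GFP-tagged ribosomal protein L10a that the Cre switches on, so that tagged ribosomes, and the RNA bound to them, could be pulled from a lysate of kidney cortex by translating ribosome affinity purification (TRAP). Podocytes are the epithelial cells of the glomerular filter. The sample labels name isolated glomerular podocytes and a column kit for RNA where the methods describe this pulldown. The libraries are called KO1, KO2, KO3, Ctrl1 and Ctrl2 in the order of the deposited columns, which give the group but not which labelled sample each one is.

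Translation begins when eIF2, carrying GTP and the initiator methionyl-tRNA, joins the small ribosomal subunit together with eIF1, eIF1A, eIF3 and eIF5. The subunit is then brought to the capped end of an mRNA by eIF4F, which is made of the cap-binding protein eIF4E, the scaffold eIF4G and the RNA helicase eIF4A. Once the start codon is found, eIF5 promotes hydrolysis of the GTP on eIF2, eIF5B joins the large subunit, and eIF2B later recharges eIF2 with GTP. In elongation, eEF1A delivers aminoacyl-tRNA and eEF2 moves the ribosome by a codon. Phosphorylation of eIF2 by stress-activated kinases and binding of eIF4E by the 4E-BP proteins are the best known brakes on this machinery, and the mTOR and stress pathways that act through them have been studied in podocyte injury.

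The libraries held 18186900 to 24871893 reads for the *Pfn1*-KO label and 22822635 to 23704366 reads for controls, so that 1 read in a gene of 2 kilobases was worth 0.0201 to 0.0275 FPKM, the deposited unit, which scales fragments to gene length and library size. Genes above 0 numbered 20435 to 20980 in the libraries labelled *Pfn1*-KO and 6901 to 7528 in controls, and a single rRNA gene took 0.0850% to 24.5% of the FPKM sum in the *Pfn1*-KO label (24.5% in KO2) and 52.0% to 58.9% in controls. *Pfn1* itself was not called lower. Its values were 41.9, 17.2 and 27.8 FPKM in KO1, KO2 and KO3, against 13.6 and 11.8 FPKM in Ctrl1 and Ctrl2. Before any rescaling, the fit gave 1.05 ± 0.56 (the standard error, SE) for its log2 fold change, with adjusted p = 0.123 by limma. Every direction below is therefore that of the libraries labelled *Pfn1*-KO. Of the podocyte markers, 8 of 10 were higher and none lower, with a summed 174 to 465 FPKM in the *Pfn1*-KO label and 28.0 to 54.0 FPKM in controls, where *Wt1* and *Ptpro* were each listed at 0 in 1 of the 2 libraries. All 10 proximal tubule markers were higher (2110 to 4687 against 149 to 370 FPKM summed), as were all 5 thick limb and distal tubule markers (369 to 630 against 7.17 to 7.85 FPKM), of which *Umod* and *Kcnj1* were listed at 0 in both controls. For endothelial markers 3 of 5 were higher (37.5 to 52.7 against 9.01 to 9.85 FPKM, with *Kdr* at 0 in both controls), for mesangial and renin markers 3 of 4 (31.9 to 49.5 against 2.38 to 32.5 FPKM, with *Pdgfrb* at 0 in both controls), and for immune markers 1 of 4 (5.18 to 67.7 against 3.56 to 504 FPKM, with *C1qa* at 0 in both controls). The podocyte marker *Nphs1* (-0.46), the mesangial *Gata3* (-0.44) and the immune *Lyz2* (-1.69) and *Cd68* (-0.78) had log2 fold changes below 0 without passing. *Lyz2* and *Cd68* had 458 and 44.6 FPKM in Ctrl1 but 3.56 and 0 FPKM in Ctrl2. By the test given below, 70.1% of all genes tested were higher and 2.13% lower. After quantile normalization, explained below, these shares were 6.99% and 12.3%. It left 1 of 10 podocyte, 6 of 10 proximal tubule and 5 of 5 thick limb and distal tubule markers higher. Of the rest, 1 of 5 endothelial, 1 of 4 mesangial and renin and 0 of 4 immune markers were higher, and 1 endothelial marker lower. Quantile normalization also turned the sign for *Pfn1*, to -0.36 on the log2 scale, again without passing (adjusted p = 0.595 by limma). The direction of *Pfn1* thus depended on the scaling. The part of the rRNA, of these cell types and of the number of genes detected in the results below was not tested. In such bulk samples fewer cells of a type and less RNA per cell cannot be told apart.

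Most translation factor genes were higher in the libraries labelled *Pfn1*-KO, as most genes of the table were, and a small set was lower. Groups were compared by limma on log2(FPKM + 1) for 14631 genes that reached 1 FPKM in 2 or more of the 5 libraries, and a gene was called at a Benjamini-Hochberg adjusted p under 0.05. Among the 65 members tested, 38 were higher (58.5%, where 70.1% of all genes tested were higher), 7 were lower (10.8%, where 2.13% of all genes were lower) and 20 did not pass. Genes listed at 0 in both controls enter this test through the *Pfn1*-KO libraries alone and cannot be lower. Among genes above 0 in every library, 23 of 45 members were higher, where 2440 of all 4764 such genes were. Of the same 45 members 7 were lower, where 315 of the 4764 genes were. The 7 lower were *Eif5b*, *Eif2s2*, *Eif2b4*, *Eif3j2*, *Eif3j1*, *Eif3a* and *Eef2kmt*. The median log2 fold change was 1.72 over the members and 1.75 over all genes tested. With the 9 tested members listed at 0 in both controls set at a floor of 3 reads per library the members' median remained 1.72, and with the 5990 such genes of the whole table at the same floor the median over all genes was 1.67. In 47 members all 3 *Pfn1*-KO libraries lay above both controls (80.1% of all genes tested did), in 8 all 3 lay below (3.49% of all genes), and in 10 the groups overlapped. The member left untested was *Eef1akmt4*, a methyltransferase of eEF1A, at 0.536, 0.673 and 0.749 FPKM in KO1, KO2 and KO3 and listed at 0 in both controls.

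The number of higher calls moved with the scaling between libraries. After quantile normalization, which gives every library the same distribution of values, the median over all genes was -0.09 and 6 members were higher (6.99% of all genes were) and 10 lower (12.3% of all genes were). After rescaling to the FPKM sum of nuclear protein-coding genes the median over all genes was 1.29, with 17 members higher (54.6% of all genes) and 9 lower (4.24% of all genes). Median-ratio size factors gave a median of 0.98 over all genes, with 14 members higher (46.8% of all genes) and 10 lower (6.18% of all genes). The members' own medians were -0.03, 1.03 and 0.52 in these 3 settings. Of the 38 members called higher, 12 had a log2 fold change below 0 after quantile normalization (*Eef1akmt3*, *Eif1ax*, *Eif2b3*, *Eif2s3y*, *Eif3k*, *Eif3l*, *Eif4e*, *Eif4e2*, *Eif4ebp1*, *Eif4ebp3*, *Eif4h* and *Eif6*), 3 of them (*Eif1ax*, *Eif3k* and *Eif4h*) also after median-ratio factors, and none after nuclear rescaling. The 7 members named as lower were lower in all 3, which added *Eif5* and *Eef1g* under nuclear rescaling, these and *Eif2ak4* under median-ratio factors, and *Eif2ak4*, *Eif4e3* and *Eif4ebp3* under quantile normalization. A rescaling to a common FPKM sum (TPM) also divides by the rRNA gene. It kept only *Eif5b* among the lower (log2 fold change -3.17, adjusted p = 0.00928 by limma). Under TPM 43 of 65 members passed as higher, while the whole table had 11038 higher calls and 98 lower calls among 14631 genes. On reads recovered from the FPKM, limma-voom called 12 of 63 members higher (42.4% of all genes) and 9 lower (3% of all genes). The translation factors made up 2.05%, 1.69% and 2.65% of nuclear protein-coding FPKM in KO1, KO2 and KO3, against 2.48% and 2.10% in Ctrl1 and Ctrl2, so their summed share overlapped between the groups.

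**Figure D1:**
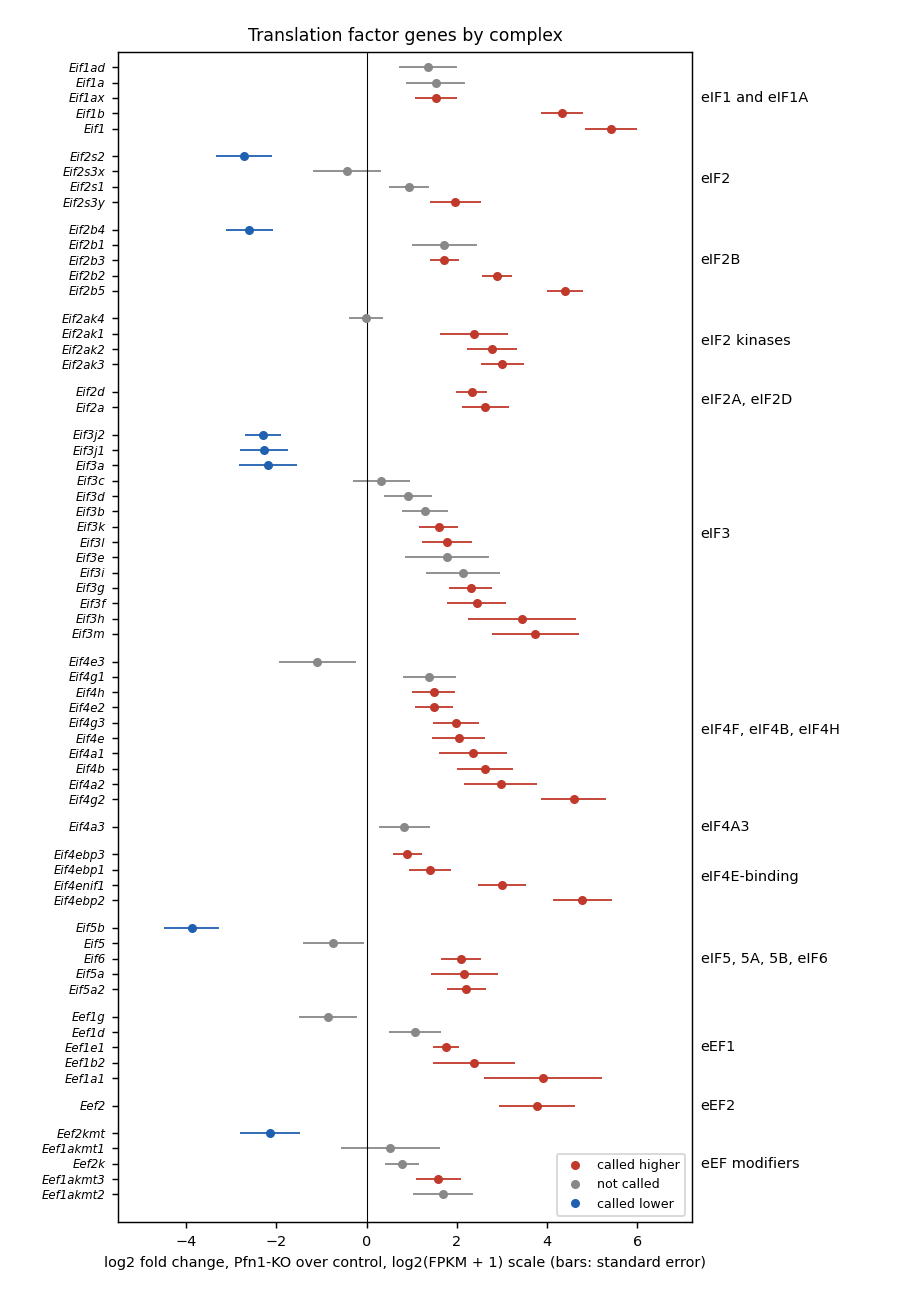
Log2 fold change of the libraries labelled *Pfn1*-KO over controls on the log2(FPKM + 1) scale for the 65 members tested, grouped by complex, with bars for the standard error of the limma fit over 3 and 2 libraries. Red marks the 38 members called higher, blue the 7 called lower and grey the 20 not called, and the lower ones are scattered over eIF2, eIF2B, eIF3, the eIF5 group and the modifiers, each beside higher members of its own complex. The size of the fold change is set by the pseudocount for members listed at 0 in both controls.

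The strongest decrease was in *Eif5b*, the GTPase that joins the large ribosomal subunit to the initiation complex. It had 21.4, 14.2 and 32.3 FPKM in KO1, KO2 and KO3, against 266 and 407 FPKM in Ctrl1 and Ctrl2. The groups lay far apart, every *Pfn1*-KO library being below 33 FPKM, and the log2 fold change was -3.88 ± 0.62 (SE, adjusted p = 0.00266 by limma). *Eif5b* and several other lower members shared a sequence feature that the choice of genes did not use, a stretch of the coding sequence made almost wholly of the purines A and G. *Eif3d* and *Eif1ad*, neither of them called, had such a stretch too, with log2 fold changes of 0.92 and 1.36, and are not shown. The richest 50-base windows of the lower members *Eif2b4*, *Eif3j1* and *Eif3a*, and of *Eif5*, which was called lower only under some scalings, are shown because they have this feature, with purines in capitals.
Eif2b4: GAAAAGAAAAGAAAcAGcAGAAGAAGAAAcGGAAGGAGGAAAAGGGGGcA
Eif3j1: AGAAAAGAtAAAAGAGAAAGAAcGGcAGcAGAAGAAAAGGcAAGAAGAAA
Eif3a: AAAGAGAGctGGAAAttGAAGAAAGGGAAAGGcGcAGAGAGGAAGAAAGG
Eif5: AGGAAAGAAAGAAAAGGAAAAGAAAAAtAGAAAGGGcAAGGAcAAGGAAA
The windows of 4 members that did not have it are shown for contrast, the lower *Eif2s2* and the higher *Eif1*, *Eif2b5* and *Eef2*.
Eif2s2: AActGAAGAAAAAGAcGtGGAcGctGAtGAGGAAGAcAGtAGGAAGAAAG
Eif1: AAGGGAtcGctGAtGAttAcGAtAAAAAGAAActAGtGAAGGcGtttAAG
Eif2b5: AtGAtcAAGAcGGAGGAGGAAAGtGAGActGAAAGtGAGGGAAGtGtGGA
Eef2: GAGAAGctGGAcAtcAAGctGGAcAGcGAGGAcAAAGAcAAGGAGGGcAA
All were read from the longest coding transcript of GENCODE vM21 on GRCm38, 5′ to 3′ along the mRNA. The *Eif2b4* window, with 46 purines of 50, lies in exon 3 of 13 at chr5:31192196-31192245 on the minus strand. That of *Eif3j1*, with 45, lies in exon 4 of 8 at chr2:122041613-122041662 on the plus strand. That of *Eif3a*, with 44, lies in exon 17 of 22 at chr19:60768738-60768787 on the minus strand. The *Eif5* window had 47 purines and lies in exon 7 of 12 at chr12:111541725-111541774 on the plus strand. The windows shown for contrast had 40 purines in *Eif2s2* (chr2:154888183-154888232, minus strand, exon 2 of 9), 34 in *Eif1* (chr11:100320777-100320826, plus strand, exon 2 of 4), 40 in *Eif2b5* (chr16:20506133-20506182, plus strand, exon 11 of 16) and 38 in *Eef2* (chr10:81179595-81179644, plus strand, exon 7 of 14).

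The eIF2 complex split between its subunits. *Eif2s2*, which encodes the beta subunit, had 19.0, 8.66 and 20.4 FPKM in KO1, KO2 and KO3, against 77.2 and 140 FPKM in Ctrl1 and Ctrl2. It was lower without overlap (log2 fold change -2.71 ± 0.62 SE, adjusted p = 0.00910 by limma). *Eif2s1*, the alpha subunit that carries the regulatory phosphorylation site, had 8.0, 14.1 and 8.0 FPKM in the *Pfn1*-KO label and 4.64 and 4.49 FPKM in controls, and its log2 fold change of 0.94 did not pass the test (adjusted p = 0.0920 by limma). For the gamma subunit, *Eif2s3x* had 13.5, 24.3 and 16.1 FPKM against 10.5 and 53.3 FPKM in the controls, whose range took in all 3 libraries. *Eif2s3y*, the Y-linked copy of this gene, rose (14.7, 3.98 and 10.5 FPKM against 1.87 and 1.12 FPKM, log2 fold change 1.97, adjusted p = 0.0213 by limma, a call lost without KO1 or KO3), and the sexes of the mice in each pool are not in the labels. *Eif2s2* thus took 34.4%, 17.0% and 37.1% of the FPKM of the 4 eIF2 genes in KO1, KO2 and KO3, against 82.0% and 70.3% in Ctrl1 and Ctrl2. The difference of -46.7 percentage points had p = 0.1 in an exact two-sided permutation test, the smallest p that 3 against 2 libraries allow. *Eif2s2* was taken up with earlier results of these data known, so this p gives no support apart from its lower call. A share within a library does not depend on the scaling between libraries.

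The exchange factor eIF2B showed a wider split. *Eif2b4*, the delta subunit, had 8.44, 4.76 and 7.30 FPKM in KO1, KO2 and KO3, against 33.8 and 61.3 FPKM in Ctrl1 and Ctrl2. It was lower by a log2 fold change of -2.60 ± 0.52 (SE, adjusted p = 0.00563 by limma). *Eif2b5*, the catalytic epsilon subunit, had 17.6, 26.2 and 17.4 FPKM in the *Pfn1*-KO label and was listed at 0 in both controls, and it was called higher. *Eif2b2* (7.03, 6.72 and 5.45 FPKM, listed at 0 in both controls) and *Eif2b3* (1.96 to 3.14 FPKM, against 0 and 0.0336 FPKM) were called higher as well, and *Eif2b1* (6.01 to 8.18 FPKM, against 4.46 and 0 FPKM) was not. *Eif2b4* made up 19.5%, 10.1% and 19.1% of the FPKM of the 5 eIF2B genes in KO1, KO2 and KO3, against 88.3% and 99.9% in Ctrl1 and Ctrl2. In controls, then, nearly all FPKM of this complex of 5 different subunits came from the delta gene. *Eif2b4* shares 7.85% of its exon bases with *Snx17* on the other strand, and the strand setting of the counting is not given in the sources used here.

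Of the 4 kinases that phosphorylate eIF2, 3 were higher (70.1% of all genes were), and none was after quantile normalization, where *Eif2ak4* was lower. *Eif2ak3*, which encodes PERK, the sensor of unfolded protein in the endoplasmic reticulum, had 8.53, 3.65 and 10.7 FPKM in KO1, KO2 and KO3 and was listed at 0 in both controls. *Eif2ak2*, the double-stranded RNA sensor PKR, had 13.7, 11.9 and 23.5 FPKM against 2.77 and 0.574 FPKM (log2 fold change 2.78, adjusted p = 0.00570 by limma). *Eif2ak1*, the heme-regulated kinase, had 10.2 to 14.4 FPKM against 0 and 4.94 FPKM, and its call was lost without Ctrl1 or any 1 of the *Pfn1*-KO libraries. *Eif2ak4*, the amino acid sensor GCN2, stood apart from them with 5.28, 5.06 and 5.88 FPKM in the *Pfn1*-KO label and 5.19 and 5.74 FPKM in controls. Its log2 fold change was -0.014 ± 0.38 (SE, adjusted p = 0.973 by limma). The factors *Eif2a* and *Eif2d*, which can bind initiator tRNA or recycle small subunits without eIF2, were both higher. *Eif2a* had 8.75, 8.63 and 11.2 FPKM in KO1, KO2 and KO3, against 1.81 and 0.00716 FPKM in Ctrl1 and Ctrl2 (log2 fold change 2.63, adjusted p = 0.0055 by limma), and *Eif2d* had 4.88, 2.90 and 4.53 FPKM and was listed at 0 in both controls. Both calls were lost after quantile normalization (adjusted p = 0.562 and 0.170 by limma), and that of *Eif2a* also with median-ratio factors and limma-voom.

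The 14 genes of eIF3, the largest initiation factor and the platform on which the others assemble, gave 6 higher, 3 lower and 5 that did not pass. Over all genes tested 70.1% were higher and 2.13% lower. *Eif3a*, the scaffold subunit, had 60.3, 47.2 and 105 FPKM in KO1, KO2 and KO3, against 251 and 376 FPKM in Ctrl1 and Ctrl2. It was lower by a log2 fold change of -2.18 ± 0.65 (SE, adjusted p = 0.0226 by limma), and this call was lost without Ctrl2 (-1.89, adjusted p = 0.0628) or without KO1 (-2.11, adjusted p = 0.0738). *Eif3j1*, a loosely held subunit, had 14.3, 7.64 and 13.8 FPKM against 72.2 and 49.1 FPKM (log2 fold change -2.28 ± 0.54 SE, adjusted p = 0.010 by limma). *Eif3j2* was lower as well, with 1.18, 0.558 and 1.43 FPKM against 7.48 and 10.6 FPKM (log2 fold change -2.29 ± 0.39 SE, adjusted p = 0.00324 by limma). This copy is not an independent member, since 98.9% of the 743 windows of 50 bases in its coding sequence occur unchanged in *Eif3j1*, and reads of the pair could be split between them in counting. *Eif3j1* also shares 19.0% of its exon bases with *Spg11* on the other strand.

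The other eIF3 subunits did not follow these 3. *Eif3c*, another core subunit, had 62.4, 82.5 and 77.3 FPKM in KO1, KO2 and KO3 and 36.2 and 93.8 FPKM in Ctrl1 and Ctrl2, and the groups overlapped (log2 fold change 0.33, adjusted p = 0.648 by limma). *Eif3b*, also of the core, had 34.4, 54.2 and 37.2 FPKM against 16.4 and 15.9 FPKM, and its log2 fold change of 1.29 fell just short of the threshold (adjusted p = 0.0551 by limma). *Eif3m*, *Eif3h*, *Eif3f*, *Eif3g*, *Eif3l* and *Eif3k* were higher, with log2 fold changes of 3.74, 3.44, 2.44, 2.30, 1.78 and 1.60. These calls moved with the scaling, since after quantile normalization, median-ratio factors, nuclear rescaling and limma-voom none of the 14 genes was higher while 3 stayed lower in each, and *Eif3k* and *Eif3l* lay below 0 after quantile normalization. The call of *Eif3h* was also lost without Ctrl2 or any 1 of the *Pfn1*-KO libraries, and that of *Eif3m* without KO1 or KO2. Of the 6, *Eif3h* and *Eif3m* were listed at 0 in Ctrl2 but had 19.6 and 7.33 FPKM in Ctrl1. The FPKM of the 11 genes other than *Eif3a*, *Eif3j1* and *Eif3j2* summed to 299, 382 and 304 in KO1, KO2 and KO3, against 126 and 129 in Ctrl1 and Ctrl2. *Eif3a* alone took 16.1%, 10.8% and 24.8% of the eIF3 sum in KO1, KO2 and KO3, against 55.0% and 66.6% in Ctrl1 and Ctrl2. The difference was -43.6 percentage points, with p = 0.1 in an exact two-sided permutation test, again the smallest p possible. With recovered reads in place of FPKM it was -41.0 points. *Eif3a* was likewise taken up with earlier results known, so the p gives no support apart from its lower call.

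**Figure D2:**
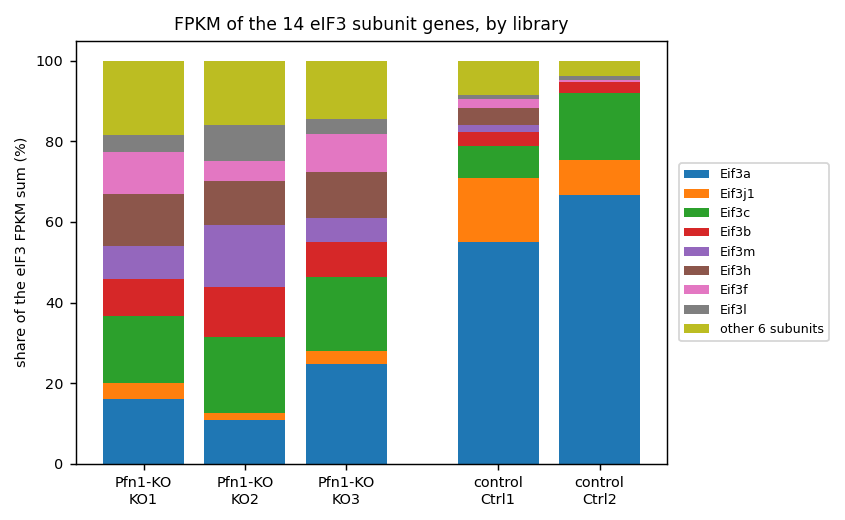
Share of the summed FPKM of the 14 eIF3 genes taken by each gene (stacked bars, percent) in the 3 libraries labelled *Pfn1*-KO and, to their right, the 2 control libraries. *Eif3a*, at the base of each bar, takes 10.8% to 24.8% in the libraries labelled *Pfn1*-KO and 55.0% to 66.6% in controls, where little is left for the other subunits.

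In the group of eIF4F and its helpers 8 of 10 genes were higher (70.1% of all genes were) and none lower. After quantile normalization 1 was higher (*Eif4g2*) and 1 lower (*Eif4e3*). Median-ratio factors and nuclear rescaling each left only *Eif4g2* higher, and limma-voom called 0 of the 9 it tested. *Eif4g2*, a relative of eIF4G that lacks the eIF4E-binding part and serves cap-independent initiation, had 183, 88.3 and 220 FPKM in KO1, KO2 and KO3, against 9.91 and 2.75 FPKM in Ctrl1 and Ctrl2. It was the highest of the group in each library of the *Pfn1*-KO label and stayed below 10 FPKM in both controls (log2 fold change 4.59 ± 0.72 SE, adjusted p = 0.00262 by limma). This call was lost with limma-voom (adjusted p = 0.0869). *Eif4g1*, the main scaffold, had 69.9, 40.7 and 88.4 FPKM against 20.9 and 26.5 FPKM, and its log2 fold change of 1.39 did not pass the test (adjusted p = 0.0664 by limma). *Eif4b*, which stimulates the helicase, had 147, 75.3 and 177 FPKM against 22.9 and 16.7 FPKM (log2 fold change 2.61, adjusted p = 0.0105 by limma). The helicases *Eif4a1* (44.8, 74.4 and 39.4 FPKM against 20.4 and 3.79 FPKM) and *Eif4a2* (49.2, 61.3 and 44.6 FPKM against 15.3 and 1.71 FPKM) were both higher, with log2 fold changes of 2.36 and 2.97. The call of *Eif4a1* was lost without Ctrl2 (1.28, adjusted p = 0.115 by limma), without any 1 of the *Pfn1*-KO libraries (adjusted p = 0.0728 to 0.114) and under quantile, median-ratio and nuclear scaling and limma-voom. That of *Eif4a2* was lost without any 1 of the *Pfn1*-KO libraries (adjusted p = 0.0566 to 0.083) and under the same 3 scalings, and that of *Eif4b* under these and limma-voom. *Eif4e*, the cap-binding protein, had 9.31, 9.29 and 7.63 FPKM against 3.43 and 0.263 FPKM (log2 fold change 2.04, adjusted p = 0.0205 by limma), a call lost in the same settings as that of *Eif4a1* and with a pseudocount of 0.1. Its relative *Eif4e3* had 11.1, 5.15 and 12.8 FPKM against 7.48 and 53.4 FPKM, so that the controls enclosed the *Pfn1*-KO label apart from KO2. *Eif4a3*, a helicase of the same family that marks exon junctions and is not part of eIF4F, had 14.9, 29.5 and 11.9 FPKM against 11.6 and 7.50 FPKM and did not pass (log2 fold change 0.84, adjusted p = 0.206 by limma).

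All 4 genes of eIF4E-binding proteins were higher (70.1% of all genes were). After quantile normalization, however, *Eif4ebp1* and *Eif4ebp3* lay below 0 and *Eif4ebp3* was called lower. Limma-voom called only *Eif4ebp3* higher. *Eif4ebp2* had 73.2, 27.2 and 85.5 FPKM in KO1, KO2 and KO3, against 1.71 and 0.568 FPKM in Ctrl1 and Ctrl2. It was higher without overlap (log2 fold change 4.78 ± 0.65 SE, adjusted p = 0.00178 by limma), a call lost with limma-voom (adjusted p = 0.160). *Eif4ebp1* was far less abundant, with 3.86, 1.43 and 3.20 FPKM against 0 and 0.918 FPKM (log2 fold change 1.41, adjusted p = 0.0325 by limma). This call was lost without Ctrl1, KO1 or KO3, under quantile, median-ratio and nuclear scaling, and with limma-voom. *Eif4enif1*, the transporter that carries eIF4E into the nucleus, had 4.77 to 13.1 FPKM against 0 and 0.605 FPKM. The call of *Eif4enif1* was lost after quantile normalization and with limma-voom (adjusted p = 0.0888). *Eif4ebp2* made up 80.5% to 83.2% of the FPKM of these 4 genes in the libraries labelled *Pfn1*-KO, against 100% in Ctrl1 and 27.2% in Ctrl2.

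A steep increase was seen in *Eif1*, which holds the scanning ribosome to the correct start codon. It had 93.1, 54.6 and 51.3 FPKM in KO1, KO2 and KO3, against 0 and 1.34 FPKM in Ctrl1 and Ctrl2 (log2 fold change 5.41 ± 0.58 SE, adjusted p = 0.00150 by limma), the size of the fold change depending on the pseudocount (7.4 at 0.1). Its close relative *Eif1b* had 29.5, 13.1 and 18.2 FPKM and was listed at 0 in both controls. No 50-base window of the coding sequence of *Eif1b* occurs unchanged in *Eif1*. *Eif1ax*, which encodes eIF1A, was higher by a smaller amount (log2 fold change 1.54, adjusted p = 0.0236 by limma), a call lost without KO1 or KO3, and *Eif1a* and *Eif1ad* did not pass.

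**Figure D3:**
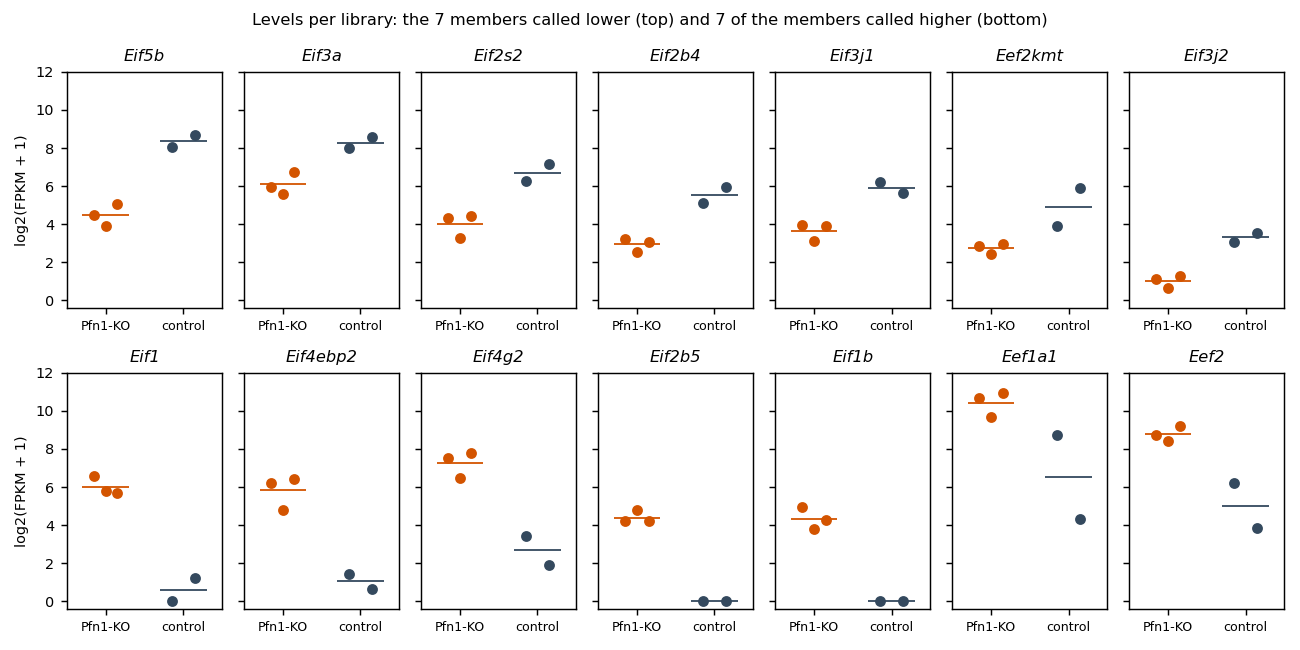
Level of 14 members in each library on the log2(FPKM + 1) scale, with the 3 libraries labelled *Pfn1*-KO left of the 2 controls and a line at each group's mean. The upper panels show the 7 members called lower, where no library of the 2 groups overlaps, and the lower panels show 7 members called higher, of which *Eif2b5* and *Eif1b* are listed at 0 in both controls and *Eef1a1* differs widely between the controls.

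Beside *Eif5b*, the 5 genes of late initiation and subunit joining held 3 that were higher and 1 that did not pass, while after quantile normalization 0 were higher and after median-ratio factors, nuclear rescaling or limma-voom 1 was, with *Eif5* then lower. Before any rescaling 70.1% of all genes tested were higher. *Eif5*, which triggers GTP hydrolysis on eIF2, had 73.9, 33.3 and 81.5 FPKM in KO1, KO2 and KO3, against 72.6 and 133 FPKM in Ctrl1 and Ctrl2, and the groups overlapped (log2 fold change -0.74, adjusted p = 0.340 by limma). *Eif5a*, which carries the modified residue hypusine and helps ribosomes through difficult peptide bonds, had 84.7, 38.9 and 45.9 FPKM against 22.8 and 5.20 FPKM (log2 fold change 2.16, adjusted p = 0.0370 by limma). This call was lost without Ctrl2 (1.19, adjusted p = 0.149 by limma), without any 1 of the *Pfn1*-KO libraries (adjusted p = 0.0836 to 0.128), with a pseudocount of 0.1 and in each of those 4 settings. Its relative *Eif5a2* had 4.35, 1.91 and 5.39 FPKM and was listed at 0 in both controls. *Eif6*, which keeps the large subunit from joining too early, had 12.2, 10.7 and 11.7 FPKM against 3.04 and 1.14 FPKM (log2 fold change 2.09 ± 0.45 SE, adjusted p = 0.00707 by limma). *Eif5b* took 10.9%, 14.3% and 18.3% of the FPKM of these 5 genes in KO1, KO2 and KO3, against 73.0% and 74.5% in Ctrl1 and Ctrl2. It shares 16.8% of its exon bases with *Rev1* on the other strand.

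The elongation factors were the most abundant members in the libraries labelled *Pfn1*-KO. *Eef1a1*, which delivers aminoacyl-tRNA, had 1629, 816 and 2000 FPKM in KO1, KO2 and KO3, against 428 and 18.9 FPKM in Ctrl1 and Ctrl2. The controls differed from each other 22.7-fold, and the call (log2 fold change 3.91 ± 1.32 SE, adjusted p = 0.0344 by limma) was lost without Ctrl2 (1.69, adjusted p = 0.341), without any 1 of the *Pfn1*-KO libraries (3.64 to 4.29, adjusted p = 0.101 to 0.124), under quantile, median-ratio and nuclear scaling, and with limma-voom. *Eef2*, the translocase, had 431, 346 and 588 FPKM against 72.4 and 13.5 FPKM (log2 fold change 3.77 ± 0.84 SE, adjusted p = 0.00825 by limma). It stayed called after quantile normalization and was lost with median-ratio factors (1.97, adjusted p = 0.0682 by limma). The exchange factor of eEF1A gave 3 different pictures in its subunits. *Eef1g* had 102, 54.6 and 136 FPKM against 166 and 167 FPKM, all 3 *Pfn1*-KO libraries being below both controls without passing the test (log2 fold change -0.86, adjusted p = 0.257 by limma). *Eef1b2* had 107, 34.9 and 107 FPKM against 31.5 and 5.36 FPKM and passed narrowly (log2 fold change 2.38, adjusted p = 0.0493 by limma), a call lost in the same settings as that of *Eef1a1* and with a pseudocount of 0.1, and *Eef1d* had 10.2, 5.26 and 9.52 FPKM against 6.24 and 1.55 FPKM and did not pass. *Eef1a1* made up 88.0% to 89.4% of the FPKM of the 5 eEF1 genes in the libraries labelled *Pfn1*-KO, against 67.8% in Ctrl1 and 9.81% in Ctrl2.

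Among the enzymes that modify elongation factors, *Eef2kmt*, a lysine methyltransferase of eEF2, was lower. It had 6.19, 4.38 and 6.65 FPKM in KO1, KO2 and KO3, against 13.7 and 57.6 FPKM in Ctrl1 and Ctrl2 (log2 fold change -2.14 ± 0.67 SE, adjusted p = 0.0269 by limma). The call was lost without Ctrl2 (-1.14, adjusted p = 0.0771) and without any 1 of the *Pfn1*-KO libraries (adjusted p = 0.0781 to 0.107), and 17.6% of its exon bases are shared with *Alg1* on the other strand. *Eef2k*, the kinase that inactivates eEF2, was low throughout, with 1.34, 1.36 and 1.59 FPKM against 0 and 0.964 FPKM, and did not pass. The methyltransferases of eEF1A gave 1 higher gene (*Eef1akmt3*, 3.36, 0.547 and 3.03 FPKM, listed at 0 in both controls) and 2 that did not pass.

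The purine-rich windows were then compared with the direction over all members tested. Each gene's longest coding transcript was searched for its most purine-rich stretch of 50 bases, and over the 65 members the share of purines there had a Pearson r of -0.55 and a Spearman rho of -0.46 with the log2 fold change (coding sequence alone: r of -0.55, chosen after seeing the data). These are correlations across genes, which share libraries and base composition and are not independent replicates. Leaving out Ctrl2 gave the weakest r among the libraries left out, -0.43. Over the 11843 protein-coding genes tested with such a value r was -0.34 and rho -0.25, so a weaker relation ran through the table at large. For the coding sequence alone r was -0.27 and rho -0.15 over 11841 genes. In the coding sequence, 9 members had a window with at least 88% purines, a limit set after the values were seen. Of these 5 were lower, 4 (*Eif1ad*, *Eif2ak4*, *Eif5* and *Eif3d*) did not pass and none was higher, the 5 including the near-identical *Eif3j1* and *Eif3j2*, against 2 lower, 16 not passing and 38 higher among the other 56. Among those 4, *Eif1ad* (1.36) and *Eif3d* (0.92) had log2 fold changes above 0, and *Eif5* (-0.74) and *Eif2ak4* (-0.014) below 0. For all protein-coding genes tested, 22.5% of the 697 at or above this limit were lower and 24.4% higher, against 0.879% lower and 76.3% higher among the 11147 below it. The lower members without such a coding window were *Eif2s2*, whose richest window had 80% purines, and *Eef2kmt*, with 66% in the coding sequence and 96% in the 3′ UTR. A purine-rich window outside the coding sequence was also found in higher members, since *Eif2ak2* and *Eif4g3* had 100% and 98% in the 3′ UTR.

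**Figure D4:**
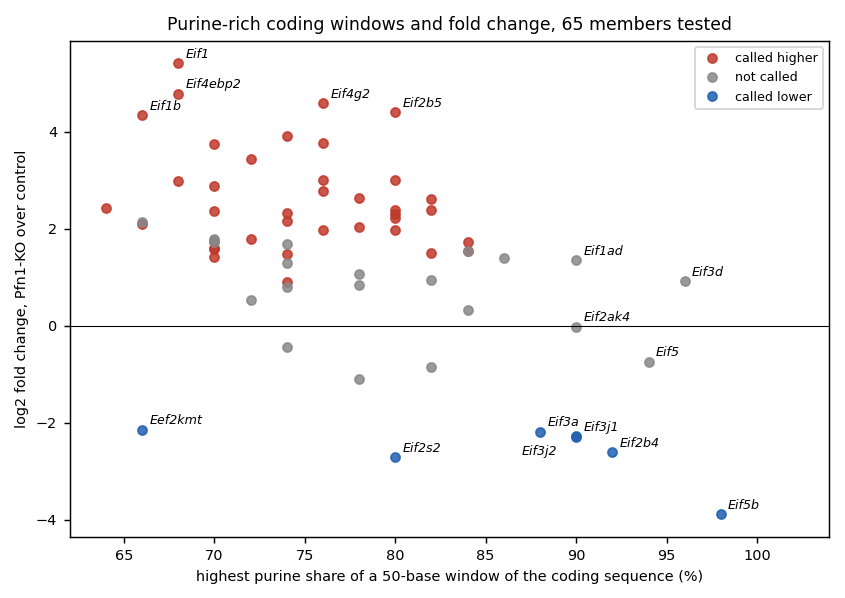
Log2 fold change of the libraries labelled *Pfn1*-KO over controls for the 65 members tested, against the highest share of purines in a 50-base window of the coding sequence (percent). Every member called higher (red) lies at 84% or below, while 5 of the 7 called lower (blue) lie between 88% and 98%, *Eif2s2* and *Eef2kmt* being the other two. The 5 include the near-identical *Eif3j1* and *Eif3j2*.

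The libraries within a group were not alike. KO2 was the lowest of its group for 41 of 66 members (62.1%, where it was the lowest for 74.8% of all genes tested) and the highest for 15 (22.7%, where it was the highest for 14.8% of all genes). Among these 15 were *Eif3l* (38.6 FPKM in KO2 against 15.4 and 15.7 FPKM in KO1 and KO3), *Eif3m* (67.5 against 30.6 and 25.6 FPKM), *Eif4a3* (29.5 against 14.9 and 11.9 FPKM) and *Eif2s1* (14.1 against 8.0 and 8.0 FPKM), so these ran against the order of most genes in that library. Over the 66 members, Pearson r of log2(FPKM + 1) was 0.91 to 0.98 between libraries labelled *Pfn1*-KO, 0.77 between the controls and 0.35 to 0.67 between the groups, as a description of these libraries. Among members above 0 in both controls, *Eif2a* (1.81 and 0.00716 FPKM in Ctrl1 and Ctrl2), *Eef1akmt2* (0.0717 and 3.83 FPKM) and *Eif3e* (14.4 and 0.580 FPKM) differed most between them. All 66 members were above 0 in each library labelled *Pfn1*-KO, against 50 in Ctrl1 and 51 in Ctrl2. Listed at 0 in both controls were 10 of the 66, and 11400 of all 21019 genes.

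Most genes that work beside these factors were higher, as most genes of the table were, and 1 was called lower. Of 29 partner genes tested, 20 were higher (69.0%, against the 70.1% of all genes) and 1 lower (3.45%, against the 2.13% of all genes). The gene called lower was *Denr*, which with *Mcts1* recycles small subunits and reinitiates translation, at 13.8, 4.95 and 12.2 FPKM in KO1, KO2 and KO3, against 37.2 and 60.7 FPKM in Ctrl1 and Ctrl2 (log2 fold change -2.21, adjusted p = 0.0171 by limma). Its partner *Mcts1* was higher (12.8, 7.60 and 9.03 FPKM against 0 and 0.335 FPKM), as was *Etf1*, the release factor that reads stop codons (55.1, 54.3 and 66.5 FPKM against 6.15 and 1.74 FPKM), and 7 of 9 termination and recycling genes were higher. Of 11 poly(A) and cap partners 7 were higher, among them *Ncbp1* of the nuclear cap-binding complex (11.5 to 18.5 FPKM, listed at 0 in both controls) and *Mknk2*, a kinase of eIF4E (21.7 to 36.7 FPKM against 3.56 and 0 FPKM). The abundant *Pabpc1*, the cytoplasmic poly(A)-binding protein (122, 42.1 and 193 FPKM against 32.4 and 35.6 FPKM), and *Larp1*, a regulator of mRNAs for ribosomal proteins (49.3, 27.9 and 61.3 FPKM against 22.8 and 65.1 FPKM), did not pass. *Pabpc4*, another cytoplasmic poly(A)-binding protein, had 23.1, 7.97 and 33.9 FPKM against 34.3 and 95.0 FPKM, all 3 *Pfn1*-KO libraries being below both controls without passing the test (log2 fold change -1.57, adjusted p = 0.108 by limma). *Pabpn1*, its nuclear relative, and *Bzw2* also had log2 fold changes below 0, -0.67 and -0.62, and did not pass. Of 9 regulators of eIF2 and eIF5A tested, 6 were higher, led by *Ppp1r15b*, the subunit that directs a phosphatase to eIF2 (47.4, 19.3 and 44.0 FPKM against 0.852 and 0.611 FPKM), and by the helicase *Ddx3x* (95.5, 171 and 92.7 FPKM against 9.69 and 6.48 FPKM). *Bzw1*, which mimics eIF5, had 64.6, 58.5 and 66.4 FPKM against 8.46 and 16.9 FPKM (log2 fold change 2.30, adjusted p = 0.010 by limma). *Atf4*, a transcription factor whose mRNA is translated when eIF2 is phosphorylated, had 56.4, 17.0 and 42.9 FPKM against 6.46 and 1.95 FPKM (log2 fold change 2.93, adjusted p = 0.0110 by limma). After quantile normalization 4 partners were higher (6.99% of all genes were) and 3 lower (*Denr*, *Pabpn1* and *Bzw2*, where 12.3% of all genes were lower).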

How the data were processed

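RNA bound to tagged podocyte ribosomes was sequenced in 3 *Pfn1*-KO and 2 control samples. According to the methods and the submitters' processing notes, fastp 0.20 served the authors for trimming, STAR 2.7.9 for alignment (GRCm38.p6), featureCounts 2.0.0 for counting over GENCODE vM25 before a filter on low counts, and DESeq2 1.30.1 for tests on counts. The deposited values are FPKM made by the authors. The methods name TPM, but the column sums differ, so they were taken as FPKM with no further scaling between samples. Of 23010 genes listed, 1991 have no value.

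Names, lengths and sequences came from GENCODE vM21, which matched 20985 of the gene IDs, 20414 with the version. Whole reads, to within 0.02 of a read, came back from FPKM for 100% of the version-matched set once length and library size were undone, 64 of 66 members among them (not *Eif4a2* and *Eef1akmt1*). Groups were compared with limma 3.58.1 in R 4.3.3 (log2 of FPKM plus a pseudocount of 1, empirical Bayes with trend, two-sided Benjamini-Hochberg adjusted p under 0.05, at least 1 FPKM in at least 2 of 5 libraries), and the script was tested on simulated data. No count test on FPKM was run as the main test. Limma-voom was run on the recovered reads. P-values measure the spread between pools of 3 mice, whose litters the labels do not give.

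The members and gene lists were chosen with earlier results of these data known. Values are given for members called lower, for the 8 largest increases above 0 in every library, for the 6 most abundant members at 0 in both controls, for the most abundant member of each complex and for the central subunits. Partners are named by the largest called changes and highest levels, *Atf4*, *Pabpc4*, *Pabpn1*, *Bzw2* and some single members being added after their values were seen. Alternatives were other filters, pseudocounts of 0.1 and 5, sample weights, 4 scalings, limma-voom and leaving out each library. The coding-only purine share and the 88% limit were added after seeing the data. *Mettl13*, also called *Eef1aknmt*, is outside the naming rule. Tables and figures were made with pandas 2.3.3, numpy 2.4.6, matplotlib 3.10.9 and scipy 1.17.1 under Python 3.11.15. Single results for a few items are not reported here.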

Additional observations from a re-analysis of the deposited data

How the results depend on the processing

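No paired analysis was possible because the deposited columns carry no replicate number of the labels, so the planned fit with the replicate number as a block was not run. Members called lower numbered 7 under both filters, both pseudocounts and sample weights, and 5 to 9 with a library left out. The lower calls lost were *Eef2kmt* and *Eif3a* without Ctrl2 or KO1, *Eef2kmt* without KO2 or KO3 and with limma-voom, and 6 under TPM, where 1 remained. Leaving out a library gave 18 to 38 members higher, 6746 to 10623 genes higher and 174 to 455 lower over the table, 14 to 18 partners higher and 1 to 3 lower, differences in share of -37.8 to -49.4 points for *Eif3a* and -40.4 to -52.5 points for *Eif2s2*, and a purine r of -0.43 to -0.58. A filter on genes above 0 in every library left 2440 genes, 23 members and 12 partners higher, with fewer genes tested (4764, of which 45 were members). Median-ratio factors gave 904 genes lower, 14 members higher, and 11 partners higher and 3 lower. Quantile normalization gave 1023 genes higher and 1806 lower, 6 members higher, and 4 partners higher and 3 lower. TPM gave 98 genes, 1 member and 0 partners lower. Nuclear rescaling gave 620 genes lower, 17 members higher, and 13 partners higher and 2 lower. Limma-voom on reads gave 6023 genes (42.4%), 12 members and 10 partners higher, and 9 of 63 members lower (3% of all genes were lower). The cause of these shifts was not tested.

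Of all 38 members called higher, 12 lay below 0 after quantile normalization and 3 after median-ratio factors. Among the members named by the rule, log2 fold changes reversed in sign as follows, *Eif2s3y*, *Eif4e*, *Eif4ebp1* and *Eif6* having been called higher. Median-ratio factors gave -0.43 for *Eef1d*, -0.64 for *Eif2s1*, -0.47 for *Eif3b*, -1.48 for *Eif3c*, -0.86 for *Eif4a3* and -0.40 for *Eif4g1*. Quantile normalization gave -1.06 for *Eef1d*, -0.99 for *Eef2k*, -1.07 for *Eif2s1*, -0.22 for *Eif2s3y*, -0.25 for *Eif3c*, -0.85 for *Eif4a3*, -0.18 for *Eif4e*, -0.59 for *Eif4ebp1* and -0.018 for *Eif6*. TPM gave 0.68 for *Eif2ak4* and 0.29 for *Eif2s3x*. Nuclear rescaling gave -0.74 for *Eif3c* and -0.17 for *Eif4a3*, and limma-voom -0.65 and -0.14 for this pair. With a library left out, *Eif3c* ran from -0.35 (without Ctrl1) to 1.0, *Eif2s3x* from -1.56 (without Ctrl1) to 0.69 (without Ctrl2), and *Eif2ak4* from -0.076 to 0.047. For members listed at 0 in a control, the size of the fitted fold change depends on the pseudocount, and the part of sequencing depth was not tested.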
